A study of Rattus norvegicus with 4 samples.

Results

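Enzymes that remove superoxide and peroxides, and enzymes that build glutathione, were followed in rat liver at 1 h after the bile duct was tied. The members were the glutathione peroxidases Gpx1, Gpx2, Gpx3 and Gpx4, the peroxiredoxins Prdx2 and Prdx6, the superoxide dismutase Sod1, and the glutathione synthesis genes Gss and Gclm. All probes whose platform annotation names exactly 1 of these genes were taken, which gave 17 of 1936 probes for 9 of 958 named genes. Of the 9 genes, 4 had 1 probe (Gpx2, Gpx3, Prdx6 and Gss), 2 had 2 probes (Gpx1 and Prdx2) and 3 had 3 probes (Gpx4, Sod1 and Gclm). No filter on low values was applied, so all 17 probes entered the comparison.

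The animals were male Sprague-Dawley rats of 250 to 300 g. In the ligated group the common bile duct was tied below the liver hilus, and in the sham group it was exposed but not tied. Rats were killed 1 h after either operation in groups of 3, and the RNA of their frozen right lateral liver lobes was mixed, so each array sets 1 pool against another. On arrays 1 and 3 the ligated pool carried the red dye Cy5 and the sham pool the green dye Cy3, and on arrays 2 and 4 the dyes were exchanged. Whether the 4 arrays were made from separate pools is not stated in the labels. All p-values therefore measure only how far these arrays spread, which may be technical.

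Superoxide dismutase turns superoxide into hydrogen peroxide. Glutathione peroxidases, which carry selenocysteine in these family members, and peroxiredoxins, which use cysteine, then reduce hydrogen peroxide and lipid peroxides. Glutathione, the electron donor of the peroxidases, is made from its amino acids by glutamate-cysteine ligase, whose modifier subunit is Gclm, and by glutathione synthetase, Gss. Hepatocytes hold large amounts of glutathione, export part of it into bile, and depend on these enzymes when retained bile acids raise oxidant load.

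Each deposited value is a log ratio of the 2 dyes with no log base given, and it was read as ligated over sham. This direction is likely rather than settled: the labels name sham as the first and ligated as the second channel on every array but do not say which was divided by which. With the opposite division every sign below would turn. If values were instead Cy5 over Cy3 on every array, the dye term described below would be the operation effect, and what is called the operation effect would be that of the dye. Ratios give no expression level, so the tissue label could not be checked against marker levels. Deposited medians over all probes were -0.88, 0.75, -0.73 and 0.87 on arrays 1 to 4, and Pearson's r across probes was 0.86 and 0.94 between arrays of the same dye orientation and -0.93 to -0.77 between opposite ones. The operation effect is the mean over both orientations after each array was centred on its median, fitted per probe with limma together with a dye term.

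Promoter windows of the members were searched for the letters of a textbook control element of this pathway. The antioxidant response element, bound by Nrf2 (the transcription factor that responds to oxidants and electrophiles), has the core TGACNNNGC. RefSeq windows of the GRCr8 build, from 250 bases before to 50 after a gene's start, covered 8 of the 9 genes in 10 windows, without Prdx6. On either strand the core was found in 2 genes, Gpx2 and Gclm, and 12.1% of all 33469 windows held it. A match in letters is a description and not a binding site. The stretches are printed 5′ to 3′ on the gene's strand, with the core in capitals as its reverse complement. The Gpx2 stretch lies at chr6:101230034-101230071 (minus strand), with the core from 13 to 5 bases before the gene's start. The Gclm stretch lies at chr2:213031938-213031996 (plus strand), with the core from 172 to 164 bases before the start.
Gpx2: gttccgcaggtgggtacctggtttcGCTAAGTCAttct
Gclm: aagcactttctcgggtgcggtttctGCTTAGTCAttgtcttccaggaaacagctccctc

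Prdx6 was the member with the clearest difference after ligation, and it was lower. Prdx6 encodes a peroxiredoxin that reduces phospholipid hydroperoxides and also has phospholipase activity. Its only probe, 1818, had deposited log ratios of -0.36, -0.58, -0.43 and -0.43 on arrays 1 to 4. All 4 deposited values were below 0, and their range was the smallest of the 17 probes. Of the 17 probes, this was the only one below 0 on all arrays as deposited, and 5.94% of all probes were. Centred on the array medians, its values were 0.52, -1.34, 0.30 and -1.30, and so parted by dye (dye term 0.86). The signs and the small range of its deposited values thus depend on this dye term, which ran against the array medians. The operation effect was -0.46 ± 0.08 (SE, n = 4 arrays; limma adjusted p = 8.34e-05), with a 95% interval from -0.62 to -0.29. If the log base is 2, the ligated pool held 0.729 times the sham signal, with base e 0.634 times and with base 10 0.350 times. Averages of 1 array of each dye orientation ranged from -0.52 to -0.39. Over all probes, 9 had a lower estimate, and 8 of these lay in blocks 3 and 4, described below.

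The Prdx6 estimate stayed below 0 under all 14 other settings, from -0.51 to -0.33, but its call did not always hold. It passed under 8 of them. Limma's adjusted p was 0.113 without centring (-0.45 ± 0.05), 0.0959 after a dye curve per array, 0.0906 after quantile normalization, 0.836 without moderation and 0.488 without replicate 3 (-0.40 ± 0.14); without the dye term it was 0.9998. A block-wise dye curve removes the dependence of values on the dye within each of 16 stretches of neighbouring probe numbers. After it Prdx6 fell by 0.33 ± 0.04 (adjusted p = 0.000437). Fewer cells of a type and less RNA per cell cannot be told apart in these liver pools.

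Markers of liver cell types were read beside this result. Of 8 hepatocyte markers 4 were measured, with 5 probes between -0.24 and -0.04, and 0 of them passed. An unadjusted p under 0.05 in limma was held by 2 of these 5 probes and by 277 of all 1936 probes. After the block-wise dye curve 1 of the 5 hepatocyte probes passed as lower, where 3.46% of all probes did. This was Ttr, the plasma carrier of thyroid hormone and retinol, which fell by 0.17 (limma adjusted p = 0.0265). Among stellate cell and fibroblast markers 2 of 8 were measured, and 1 of 3 probes passed as higher, where 18 of all 1936 probes did. The marker probe that rose was Col1a1 probe 1306, for a collagen chain (0.34 ± 0.08, limma adjusted p = 0.00526). The other Col1a1 probe, 1183, had 0.10 ± 0.08 (limma adjusted p = 0.812), and Vim had 0.003. Endothelial markers (3 of 6 genes, 3 probes) lay between -0.18 and -0.05, macrophage and neutrophil markers (1 of 11 genes, 2 probes) at 0.02 and 0.15, and the cholangiocyte marker Spp1 (1 of 7) at 0.10, none past the threshold. None of 10 erythroid markers was measured. The part of these markers in the Prdx6 result was not tested.

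The patterns nearest to Prdx6 over the 4 centred values, by Euclidean distance among probes of other named genes, were those of Serpina3n probe 1753 (distance 0.174), Apoa4 probe 662 (0.197) and Cyp8b1 probe 1391 (0.253). Serpina3n encodes a secreted protease inhibitor, Apoa4 an apolipoprotein and Cyp8b1 the sterol hydroxylase of cholic acid synthesis. Their operation effects were -0.39, -0.40 and -0.42, and all were below 0 on every array as deposited. Both follow from the choice of these probes by nearness over the same 4 values. With the block-wise dye curve these 3 had -0.37, -0.37 and -0.38.

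**Figure D1:**
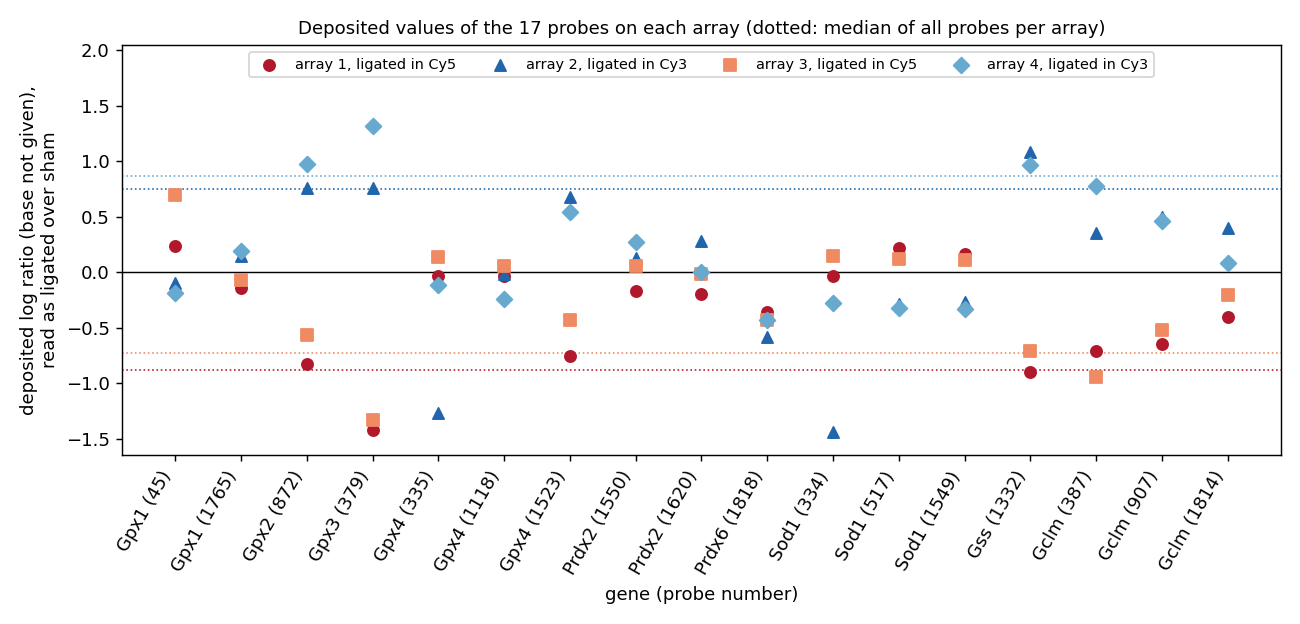
Deposited log ratio (vertical axis, base not given, ligated over sham) of each of the 17 probes on the 4 arrays; red and orange points are arrays with the ligated pool in Cy5, blue points those with it in Cy3, and dotted lines are the medians of all probes. Prdx6 lies between -0.58 and -0.36 on all arrays, Gpx3 parts by dye from -1.42 to 1.31, and array 2 is at -1.44 for Sod1 probe 334 and -1.27 for Gpx4 probe 335.

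Of the 17 probes, 3 had an adjusted p below 0.05 in limma and so passed, all lower after ligation: Prdx6, 1 of 3 Sod1 probes and 1 of 3 Gpx4 probes. Over all probes 5.73% passed in either direction and 4.8% passed as lower. The Sod1 and Gpx4 probes lie side by side, as numbers 334 and 335, in block 3 of the array (a block is 1 of 16 equal stretches of neighbouring probe numbers). Array 2 had a centred median of -0.87 in block 3 and of -0.33 in block 4, against -0.17 to 0.34 in the other 14 blocks. In blocks 3 and 4, 29.3% of probes passed as lower, and 2 of the 4 member probes there did. Outside them 1.3% of probes passed as lower, and 1 of 13 member probes did, Prdx6. After the block-wise dye curve 1 of the 17 passed, Prdx6, where 6.97% of all probes passed in either direction and 3.46% as lower.

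**Figure D2:**
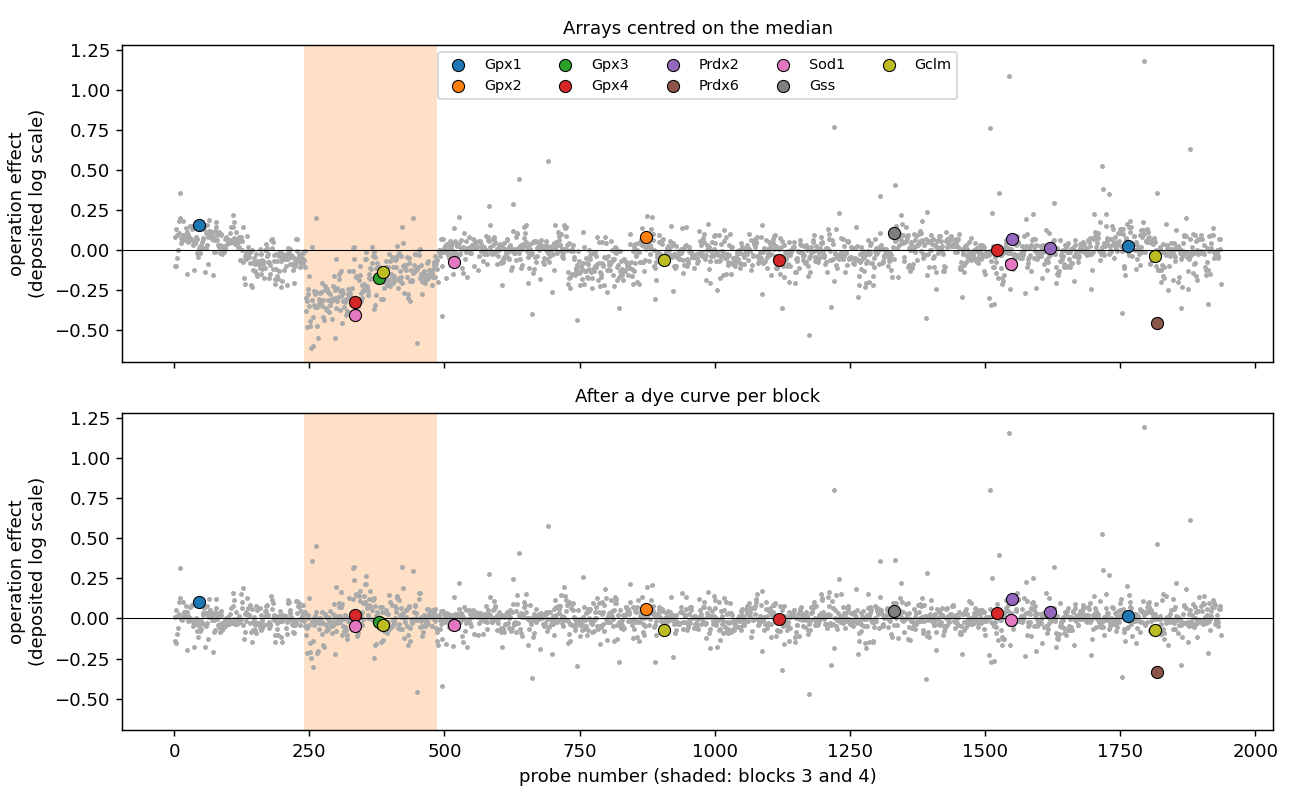
Operation effect (vertical axis, ligated minus sham, deposited log scale) against probe number for all 1936 probes (grey) and the 17 probes (coloured by gene), with arrays centred on the median above and after a block-wise dye curve below; blocks 3 and 4 are shaded. Sod1 and Gpx4 in block 3 move from -0.41 and -0.33 to -0.05 and 0.02, and Prdx6 from -0.46 to -0.33.

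Sod1, the cytosolic copper and zinc superoxide dismutase, passed at 1 of its 3 probes, and that call was lost without any 1 of arrays 1, 2 and 3. Probe 334 had deposited log ratios of -0.03, -1.44, 0.15 and -0.27. Array 2 alone was far below the others, and without it the range was -0.27 to 0.15. Its operation effect was -0.41 ± 0.09 (adjusted p = 0.00243), and -0.14 ± 0.09 without replicate 2 (adjusted p = 0.657). Without replicate 1 or 3 the estimate hardly moved (-0.40 and -0.41) but had an SE of 0.14 and did not pass (adjusted p = 0.228 and 0.429), and without replicate 4 it was -0.67 ± 0.09 and passed (adjusted p = 1.77e-12). Probe 517, in block 5, had 0.22, -0.29, 0.12 and -0.32, and probe 1549, in block 13, had 0.17, -0.27, 0.11 and -0.33. These probes differed from each other by -0.02 to 0.05 on the 4 arrays, whereas on array 2 probe 334 differed from them by -1.15 and -1.17. Their operation effects were -0.07 ± 0.08 and -0.09 ± 0.08 (adjusted p = 0.932 and 0.856). With the block-wise dye curve the 3 Sod1 probes had -0.05, -0.04 and -0.01, with SEs of 0.036, 0.035 and 0.035. Over 13 other settings probe 334 passed under 2.

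Gpx4, which reduces phospholipid hydroperoxides within membranes, also passed at 1 of 3 probes, and that call too was lost without any 1 of arrays 1, 2 and 3. Probe 335 had -0.04, -1.27, 0.14 and -0.12, with array 2 again apart from the rest. The operation effect of this probe was -0.33 ± 0.09 (adjusted p = 0.0204), -0.07 ± 0.09 without replicate 2 (adjusted p = 0.951) and 0.02 ± 0.04 after the block-wise dye curve (adjusted p = 0.848). Without replicate 1 or 3 it was -0.32 and -0.33 and did not pass (adjusted p = 0.476 and 0.918). It passed under 1 of 13 other settings, without replicate 4, at -0.59 ± 0.09 (adjusted p = 7.28e-10). Probe 1118 had deposited values of -0.03, -0.01, 0.06 and -0.24. Probe 1523 had -0.76, 0.67, -0.43 and 0.54, with the signs of the array medians. On centred values the dye term was 0.88 for probe 1118 and 0.21 for probe 1523. The operation effects of probes 1118 and 1523 were -0.06 ± 0.08 and 0.00 ± 0.08 (adjusted p = 0.959 and 0.991).

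The 3 patterns nearest to Sod1 probe 334 were Ctsb probe 307, Ldha probe 310 and Fgg probe 287, and those nearest to Gpx4 probe 335 were Ctsb probe 307, Srsf5 probe 316 and Cyb5a probe 264. All of these neighbours lie in block 3, with array 2 values from -1.51 to -1.14. Their operation effects ran from -0.45 to -0.31. Nearness to probes 334 and 335 in these values follows from how the neighbours were chosen. After the block-wise dye curve their effects were -0.10 to 0.02, with none past the threshold (limma adjusted p from 0.169 to 0.951).

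Gpx1, the abundant cytosolic glutathione peroxidase, was represented by probes 45 and 1765. Probe 45 had deposited log ratios of 0.24, -0.10, 0.70 and -0.19, the highest value of all members on arrays 1 and 3. Probe 1765 had -0.14, 0.14, -0.07 and 0.20. As deposited, the probes had opposite signs on every array, and each had opposite signs in the 2 dye orientations. Centred on the array medians, both were above 0 on arrays 1 and 3 and below 0 on arrays 2 and 4. Their operation effects were 0.16 ± 0.09 and 0.03 ± 0.08, and neither passed (adjusted p = 0.402 and 0.991). The 95% interval of probe 45 ran from -0.009 to 0.33, and after the block-wise dye curve from 0.02 to 0.18 around 0.10 (adjusted p = 0.141).

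Gpx2, a glutathione peroxidase best known from the gut epithelium, had -0.83, 0.76, -0.56 and 0.98. These values followed the medians of the arrays, and the operation effect was 0.08 ± 0.08 (adjusted p = 0.877). Gpx3, the secreted plasma peroxidase, had -1.42, 0.76, -1.33 and 1.31, the lowest of all members on arrays 1 and 3 and the highest on array 4. Its probe lies in block 4. The operation effect of Gpx3 was -0.17 ± 0.09 (adjusted p = 0.333), and with the block-wise dye curve -0.02 ± 0.04 (adjusted p = 0.816). It was -0.28 ± 0.09 without replicate 4, where it passed (adjusted p = 0.0119), and -0.06 ± 0.09 without replicate 2 (adjusted p = 0.951).

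Prdx2, a cytosolic peroxiredoxin that is regenerated through thioredoxin, did not pass at either probe. Probe 1550 had -0.17, 0.13, 0.06 and 0.27, and probe 1620 had -0.19, 0.28, -0.02 and -0.002. The operation effects were 0.07 ± 0.08 and 0.01 ± 0.08 (adjusted p = 0.932 and 0.991). With the block-wise dye curve they were 0.12 ± 0.04 and 0.04 ± 0.04 (adjusted p = 0.113 and 0.636). The 95% intervals of both probes on centred values, -0.10 to 0.23 and -0.16 to 0.18, lie above the -0.29 that ends the interval of Prdx6; the difference itself was not tested.

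The glutathione synthesis genes did not pass at any of their 4 probes. Gss, which adds glycine in the last step, had -0.90, 1.09, -0.71 and 0.96, close to the medians of the arrays, with an operation effect of 0.11 ± 0.08 (adjusted p = 0.760). Gclm, which lowers the feedback inhibition of the ligase by glutathione, had -0.71, 0.35, -0.94 and 0.78 at probe 387, -0.65, 0.50, -0.52 and 0.46 at probe 907, and -0.40, 0.40, -0.21 and 0.08 at probe 1814. As deposited, all 3 Gclm probes were thus negative with the ligated pool in Cy5 and positive with it in Cy3, as the array medians were. Centred on those medians, probes 907 and 1814 had the opposite signs, and probe 387 had 0.16, -0.40, -0.21 and -0.09. The operation effects of the 3 probes were -0.14 ± 0.09, -0.06 ± 0.08 and -0.04 ± 0.09 (limma adjusted p = 0.557, 0.962 and 0.991). With the block-wise dye curve they were -0.04, -0.07 and -0.07. Gpx2 and Gclm, whose promoter stretches are printed above, thus had effects of 0.08 and of -0.14 to -0.04, none past the threshold.

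**Figure D3:**
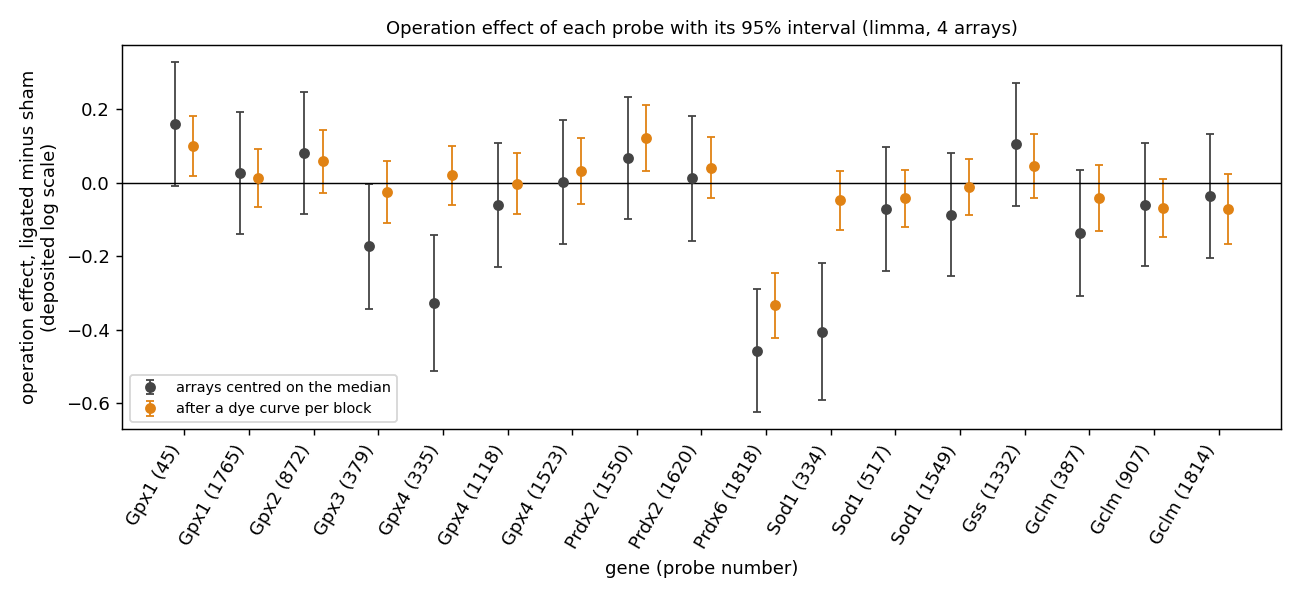
Operation effect (vertical axis, ligated minus sham, deposited log scale) of each probe with its 95% interval from limma over 4 arrays, with arrays centred on the median (dark) and after a block-wise dye curve (orange). In both fits the interval of Prdx6 lies below 0 (-0.62 to -0.29 and -0.42 to -0.24), while those of Sod1 probe 334 and Gpx4 probe 335 lie below 0 only with centred arrays. The interval of Gpx3 also lies below 0 only with centred arrays (-0.34 to -0.003). Those of Gpx1 probe 45 (0.02 to 0.18) and Prdx2 probe 1550 (0.03 to 0.21) lie above 0 only after the curve.

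In all, 10 of the 17 operation effects were below 0 (58.8%), against 60.3% of all probes, and the median was -0.06 against -0.02 over all probes. After the block-wise dye curve 9 were below 0, and the 16 probes other than Prdx6 lay between -0.07 and 0.12. For the 14 probes that did not pass on centred values, the estimates ran from -0.17 to 0.16 and the 95% intervals reached from -0.34 to 0.33. Missing the threshold does not show that these genes did not change.

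Where a gene had several probes, the probes could be set against each other. Over the 11 pairs of probes of the same gene, the operation effects differed by up to 0.33, with a median difference of 0.10. Over the 7 pairs without probes 334 and 335 the largest difference was 0.13, for Gpx1. With the block-wise dye curve the largest over all 11 pairs was 0.09. With probes of a gene averaged before the fit, Prdx6 was the only member that passed (-0.46 ± 0.07, adjusted p = 0.000712), and Sod1 and Gpx4 had -0.19 and -0.13 (adjusted p = 0.197 and 0.464).

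The members differed more in how they followed the dye than in how they followed the operation, as the array as a whole did. Over all probes the SD was 0.55 for the dye term and 0.13 for the operation effect. The dye term, which is 0.5 times the difference between arrays with the ligated pool in Cy5 and in Cy3 on centred values, ran from -0.40 for Gpx3 to 1.26 for Sod1 probe 334. It passed at 14 of the 17 probes, 13 above 0 and 1 below (Gpx3), where 82.6% of all probes passed. Read as Cy5 over Cy3 throughout, which turns arrays 2 and 4, these terms would be the effect of the operation. A dye term above 0.5 was held by 11 of 17 member probes (64.7%) and by 31.0% of all probes, and such a term puts the deposited values nearer to 0 than the array medians, or on the other side of 0.

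Sod1 lay at the upper end, with dye terms of 1.26, 1.04 and 1.03, above 96.9% of all probes or more. Gpx1 had 1.11 and 0.67, Prdx6 had 0.86, and the Prdx2 probes had 0.68 each. Gpx4 spread from 0.21 to 0.88 and 1.18, and Gclm from 0.11 to 0.28 and 0.54, so the probes of these genes did not share a dye term. Gpx2 (0.03) and Gss (-0.11) lay near the middle of the array. For comparison, 4 of 5 hepatocyte marker probes had a dye term above 0.5, and 1 of 9 probes of the other liver cell types did. Spot brightness was not analysed here, so the part of signal strength in these terms was not tested.

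**Figure D4:**
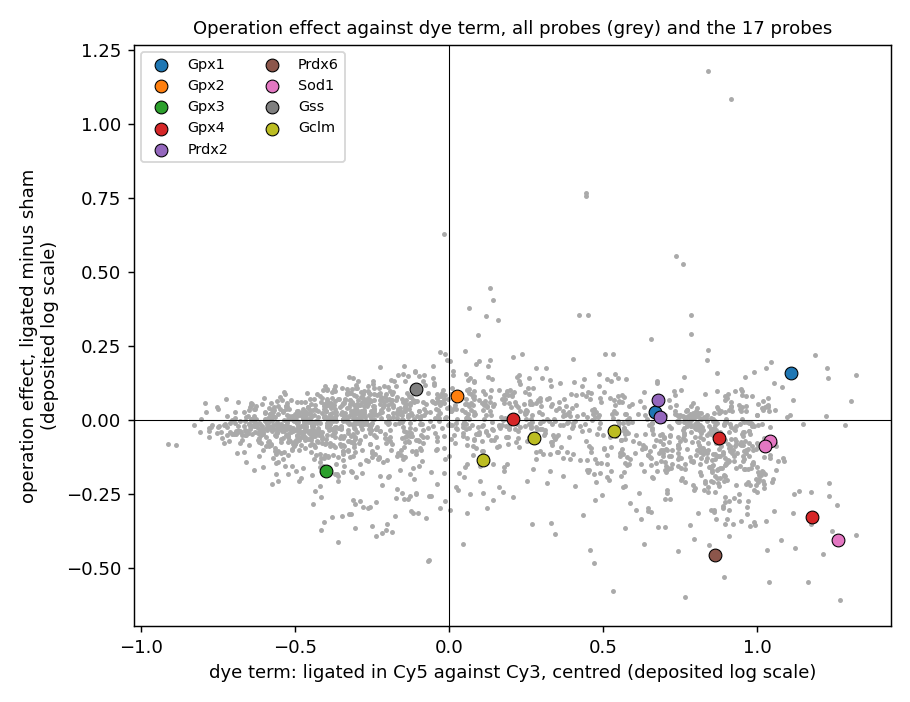
Operation effect (vertical axis) against dye term (horizontal axis), both on the deposited log scale, for all 1936 probes (grey) and the 17 probes (coloured by gene). The member probes spread from -0.40 to 1.26 along the dye term and from -0.46 to 0.16 along the operation effect.

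Other genes of the same pathway were sparsely covered. Of 44 listed genes of peroxide, superoxide, thioredoxin and glutathione handling, 6 were measured with 8 probes, and 0 passed in either direction in limma (1 had an unadjusted p under 0.05, and 3 did after the block-wise dye curve, where 0 passed). Over all 1936 probes, 277 had an unadjusted p under 0.05 in limma, and 399 did after the block-wise dye curve. The operation effects of the 8 pathway probes ran from -0.25 to 0.12 with a median of -0.01. The lowest was that of Sod2 probe 311, for the mitochondrial manganese superoxide dismutase, which lies in block 3. It had 0.06, -1.09, 0.07 and -0.03, again with array 2 apart, and an effect of -0.25 ± 0.09 (adjusted p = 0.103) that became 0.09 ± 0.03 after the block-wise dye curve (adjusted p = 0.172). The other Sod2 probe, 1615, had an effect of -0.12 ± 0.08 (limma adjusted p = 0.641). With a dye term of 0.87, it too was below 0 on all arrays as deposited (-0.06, -0.14, -0.04 and -0.22). Prdx4, the peroxiredoxin of the endoplasmic reticulum, had -0.01 and -0.05, thioredoxin (Txn1) had 0.03, Ggt1, which cleaves extracellular glutathione, had 0.05, extracellular Sod3 had -0.01, and malic enzyme (Me1), a source of NADPH, had 0.12.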

How the data were processed

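Values are the authors' deposited log ratios, 1 score per probe and array; log base, scanner, background correction and normalization were not stated in the sources used. Symbols are those of the platform annotation, and all members matched a RefSeq gene ID (GRCr8). Of 1936 probes, 1432 had 1 symbol, 19 several and 485 none. Each array was centred on its median, and an operation and a dye term were fitted per probe with limma 3.58.1 in R 4.3.3 (lmFit, eBayes, Benjamini-Hochberg over all probes, threshold 0.05). The fit leaves 2 residual degrees of freedom, to which the prior added 76.2, so SE and p come mainly from the pooled spread of the whole array and little from a probe's own values. With 4 arrays an exact sign permutation test cannot go below p = 0.125, so none was used.

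The dye curve was a lowess (span 67%) of each array's centred values on the probe's dye term, per array or per block (block-wise), and its residuals were fitted. Its SE takes no account of the curve. The fit was tested on simulated data for this comparison (1936 probes): of 100 probes changed by 0.3, 96% were recovered. Of 100 others changed by 0.5 in the same run, 100% were. Among the unchanged probes of that run 10 were called. The simulation gave all probes the same spread and held no shift of single blocks, so it cannot tell what share would be recovered on these arrays.

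Every probe of the members is named. Of the pathway list, genes with a call were to be named, and all 6 measured are given because none had one. For each called member the 3 nearest probes are named. Members and lists were chosen with earlier results of these data known. Alternatives were no centring, no dye term, block medians, both dye curves, leaving out blocks 3 and 4, equal scaling, quantile normalization, a robust prior, no moderation, averaged probes and leaving out each array. The number of arrays limits the precision.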

Additional observations from a re-analysis of the deposited data

Results flagged for a closer look

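Among the 25 probes of the members and the pathway list, 1 had an array separated from the others past Dixon's 95% critical value for 4 values. For Sod2 probe 311 in block 3, array 2 (-1.09) was separated from the nearest of the other deposited values by 0.915 of the whole range of the 4 arrays. Array 2 was also lowest for Sod1 probe 334 and Gpx4 probe 335, short of that value. For 4 values from 1 normal distribution, chance alone marks about 1 in 20 groups. Deposited values also part by dye orientation, so this rate need not hold here.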

How the results depend on the processing

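The count of all called probes (111) was 3 without centring, 0 without the dye term, 7 with a dye curve per array, 62 with equal scaling, 12 with quantile normalization, 67 with a robust prior, 0 without moderation, 40 of 958 genes with averaged probes, and 12 to 241 leaving out each array. The number of called member probes (3) was 0 without centring, without the dye term, with a dye curve per array, with quantile normalization or without moderation. It was 1 with block medians, with the block-wise dye curve, without blocks 3 and 4, with a robust prior and with averaged probes, and 0 to 4 leaving out each array (4 without replicate 4, 0 without replicate 3). The pathway count was 0 to 1 leaving out each array, with Sod2 probe 311 called without replicate 4 (-0.49).

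Of 25 probes, 13 changed sign under some setting, 1 of them called (Gpx4 probe 335, 0.020 with the block-wise dye curve). With the block-wise dye curve Sod2 probe 311 had 0.088 and Sod3 0.0020. With a dye curve per array Gpx4 probe 1118 had 0.010, Sod1 probe 517 0.020 and Sod1 probe 1549 0.0015. With quantile normalization Gpx4 probe 1118 had 0.0099, Sod1 probe 517 0.015 and Gclm probe 1814 0.021. With block medians Gpx1 probe 1765 had -0.062, Gpx4 probe 1523 -0.018 and Txn1 -0.056. Without blocks 3 and 4 Gpx1 probe 1765 had -0.00041, Gpx4 probe 1523 -0.025 and Prdx2 probe 1620 -0.016. With equal scaling Gpx4 probe 1523 had -0.0017. Leaving out each array, the ranges were -0.15 to 0.024 for Gpx4 probe 1118, -0.061 to 0.066 for probe 1523, -0.088 to 0.11 for Prdx2 probe 1620, -0.15 to 0.074 for Gclm probe 1814, -0.026 to 0.011 and -0.13 to 0.032 for Prdx4 probes 934 and 1295, -0.14 to 0.12 for Sod3 and -0.056 to 0.12 for Txn1. The cause was not tested. No paired analysis was possible because the arrays form 1 group. A fit without 1 array has 1 residual degree of freedom, and all probes then share an SE.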
